A study of Mus musculus with 4 samples.

Results

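The genes described here are 9 genes for proteins of the neutrophil granulocyte: Mpo, Elane, Prtn3 and Ctsg of the primary granules, Ngp, Ltf and Camp of the secondary granules, and S100a8 and S100a9, whose products lie in the cytosol. They were taken by symbol, and all 9 were found among the 35939 gene rows of the count table. Their transcripts were counted from mRNA sequencing of erythroid progenitors, taken from C57BL/6 mouse fetal livers at embryonic day 13.5. The cells had been sorted as CD71+, that is with the transferrin receptor on their surface, and TER119-, that is without a surface marker of later red cell precursors; propidium iodide was the other stain, and the labels name no antibody against myeloid cells. Control libraries pooled RNA of embryos that were Rcor1+/+ or Rcor1+/-, and mutant libraries pooled RNA of Rcor1-/- embryos. Rcor1 encodes CoREST, the scaffold that joins the demethylase Kdm1a to histone deacetylases. Each group had 2 libraries, each made from several livers, and no source used here describes the Rcor1 allele.

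Neutrophils store antimicrobial proteins in granules that are filled in sequence as the cell matures. Primary, or azurophil, granules are made at the promyelocyte stage and hold myeloperoxidase and a family of serine proteases. Secondary, or specific, granules follow at the myelocyte stage and hold lactotransferrin and precursors of cathelicidin. S100a8 and S100a9 pair as calprotectin, a protein that binds calcium and zinc and is abundant in the cytosol of neutrophils and monocytes. Granulocyte progenitors share an ancestor with erythroid cells, and transcription factors such as PU.1 and the C/EBP family drive the granule genes in the myeloid branch.

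The sequences upstream of 5 of the genes are printed because 4 of them share a short motif on the same strand, while Prtn3 and Mpo rose, Elane fell and Ctsg did not pass the test; S100a8 holds that motif on the other strand. Each is the 250 bases before the start of the gene on its own strand, from RefSeq on build GRCm38.p6, and all 9 genes were matched there. The windows are chr10:79879417-79879666 (+ strand) for Prtn3, chr10:79886062-79886311 (+ strand) for Elane, chr11:87793534-87793783 (+ strand) for Mpo, chr14:56102575-56102824 (- strand) for Ctsg and chr3:90668821-90669070 (+ strand) for S100a8. The counts were made on mm9, and the files hold no coordinates. Capitals mark GAGGAA, the core bound by PU.1 and other ETS factors, and CAACNG, a core bound by MYB, on either strand (TTCCTC and CNGTTG read on the other).
Prtn3: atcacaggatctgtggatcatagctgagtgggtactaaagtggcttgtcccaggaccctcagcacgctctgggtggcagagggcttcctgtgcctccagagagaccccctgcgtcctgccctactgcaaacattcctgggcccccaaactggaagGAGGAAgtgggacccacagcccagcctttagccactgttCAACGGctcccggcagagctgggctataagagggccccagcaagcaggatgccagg
Elane: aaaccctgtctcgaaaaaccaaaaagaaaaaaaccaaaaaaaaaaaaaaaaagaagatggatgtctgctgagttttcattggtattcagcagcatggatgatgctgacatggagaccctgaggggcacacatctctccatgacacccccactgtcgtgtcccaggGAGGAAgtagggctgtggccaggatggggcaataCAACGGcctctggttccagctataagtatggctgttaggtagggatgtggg
Mpo: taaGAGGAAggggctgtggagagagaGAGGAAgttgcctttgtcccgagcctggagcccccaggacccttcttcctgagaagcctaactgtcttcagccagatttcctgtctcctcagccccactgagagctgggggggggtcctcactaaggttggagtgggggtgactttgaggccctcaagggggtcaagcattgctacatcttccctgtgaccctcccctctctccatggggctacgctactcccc
Ctsg: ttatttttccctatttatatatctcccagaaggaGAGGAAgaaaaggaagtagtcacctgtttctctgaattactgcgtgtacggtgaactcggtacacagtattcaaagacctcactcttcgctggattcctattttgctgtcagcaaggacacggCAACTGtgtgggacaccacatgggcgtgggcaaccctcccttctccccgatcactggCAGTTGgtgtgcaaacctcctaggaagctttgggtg
S100a8: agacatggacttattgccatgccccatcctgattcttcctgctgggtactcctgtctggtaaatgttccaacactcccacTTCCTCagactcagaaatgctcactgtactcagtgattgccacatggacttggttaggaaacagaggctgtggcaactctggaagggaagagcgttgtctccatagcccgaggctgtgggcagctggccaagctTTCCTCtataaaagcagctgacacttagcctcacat

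The letters GAGGAA lay in 6 of the 9 windows, those of Mpo, Prtn3, Elane, Ctsg, Ltf and S100a8, and in 23.3% of 32851 such windows over all RefSeq genes. CAACNG lay in 4 of the 9 (Elane, Prtn3, Ctsg and Ngp) and in 29.3% of all. Prtn3 and Elane carried both in a like order, GAGGAA beginning at -95 and -85 and CAACGG at -56 and -51 relative to the start of the gene. TTGCNNAA, a C/EBP pattern, lay upstream of Ngp, Ltf and S100a9 and in 9.56% of all windows, and TGTGGT, the RUNX core, upstream of Ctsg and S100a9 and in 14% of all. AATCACNGC, a pattern of the CoREST-recruiting repressors Gfi1 and Gfi1b, lay in no window of the 9 and in 0.776% of all. None of the 19 matches in the 9 windows overlapped another. These are matches of letters, not measured binding.

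Library totals ran from 15053229 to 26892375 counts. Rcor1 itself was counted 4083 and 3807 times in the controls, against 2061 and 1240 times in the mutants. Genes of the erythroid list took 7163 and 7367 CPM (counts scaled to a common library total) in the controls and 5366 and 5290 in the mutants, and 10 of its 12 genes fell, by most Epb4.2 (-1.05), Slc4a1 (-0.98), Epor (-0.92) and Klf1 (-0.73). Spna1 rose (0.33). Hba-a2 did not pass (-0.19), with 65 and 43 counts in the controls and 51 and 33 in the mutants. Hbb-b1 had 24281 and 20467 counts in the controls and 18151 and 10143 in the mutants. How reads mapping to several places were counted is not known, so the Hba-a2 count may not give the level of its transcript. The sorted cells carried the erythroid transcripts that their label names. The 9 genes together had 1467 and 1337 counts in the controls and 3727 and 2280 in the mutants, which is 54.6 and 58.6 against 148 and 151 CPM by library total. Together their transcripts were thus a small part of every library.

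Below, the level of a single gene is given in CPM scaled by library total and TMM factor (a correction for differences in composition), with its SD over n = 2 libraries. A change is a log2 fold change, mutant over control, with its standard error, from edgeR's quasi-likelihood test, and its p is Benjamini-Hochberg adjusted over all 13140 genes tested. All 9 genes were tested. In both control libraries each lay above the limit of the filter on low counts, so none was tested through its mutant level alone. Of the 9 genes, 4 rose (Mpo, Prtn3, S100a8 and S100a9), 1 fell (Elane), and 4 did not pass (Ctsg, Ngp, Ltf and Camp). Among all genes tested, 28.3% rose and 29.2% fell. The median change of the 9 was 0.01, and that of all tested genes was also 0.01. In 8 of the 9 genes, all but Ltf, the groups did not overlap, as in 77.9% of all genes: 4 members lay higher in both mutant libraries (39.5% of all genes) and 4 lower (38.4%). In pooled RNA, fewer cells of a type and less RNA per cell cannot be told apart.

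**Figure D1:**
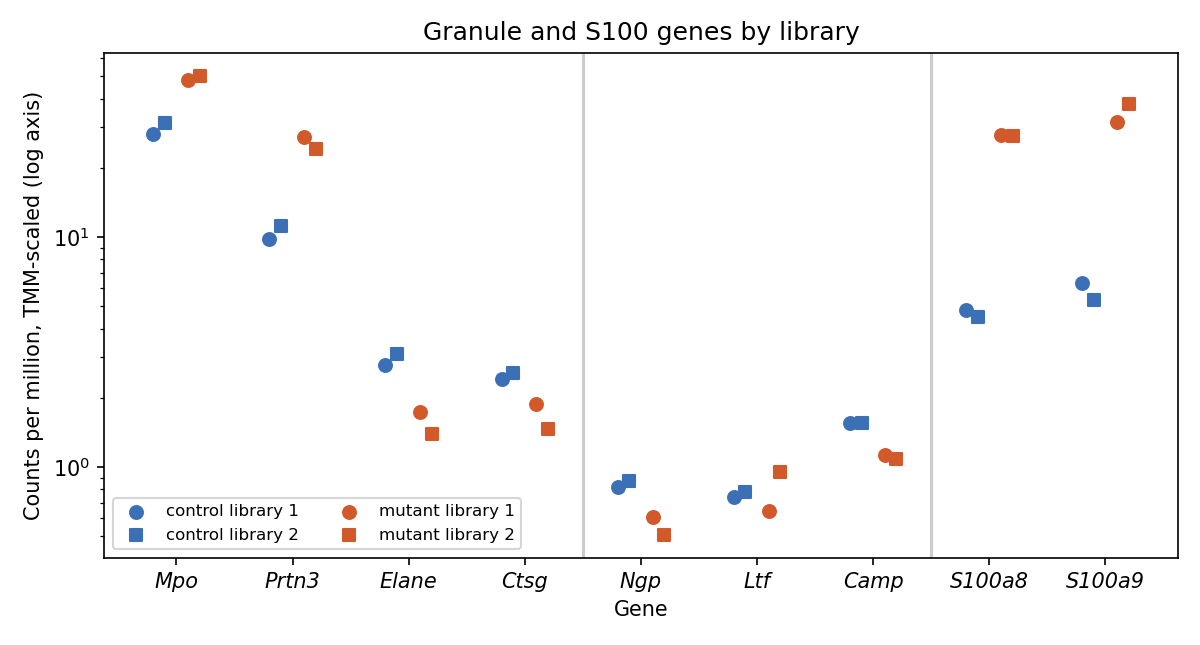
Level of each of the 9 genes in each library (vertical axis, TMM-scaled CPM on a log axis; points are single libraries, blue for control and orange for mutant; grey lines part primary granule, secondary granule and cytosolic genes). Mpo, Prtn3, S100a8 and S100a9 are higher in both mutant libraries, Elane, Ctsg, Ngp and Camp lower in both, and Ltf overlaps; heights of different genes are not scaled for length.

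Among the primary granule genes the 4 members split. Mpo encodes myeloperoxidase, the haem enzyme that makes hypochlorous acid. Mpo (ENSMUSG00000009350) had 717 and 685 counts in the controls and 1271 and 790 in the mutants. Both mutant libraries lay above both controls once scaled, at 48.0 and 50.3 CPM against 28.0 and 31.4. Its level went from 29.7 ± 2.39 to 49.1 ± 1.58 CPM, a change of 0.73 ± 0.08 (edgeR adjusted p = 8.37e-07), or 1.65-fold.

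Prtn3 encodes proteinase 3, a serine protease of the same granules. Prtn3 (ENSMUSG00000057729) had 251 and 244 counts in the controls and 724 and 379 in the mutants. Its level rose from 10.5 ± 0.971 to 25.7 ± 2.29 CPM, a change of 1.31 ± 0.10 (edgeR adjusted p = 1.21e-08), or 2.47-fold, with no overlap of the groups. In the GENCODE M21 models the exons of Prtn3 overlap those of Plppr3 on the opposite strand. Plppr3, listed in the files as BC005764, had 20 and 9 counts in the controls and 64 and 28 in the mutants. No source used here says whether counting used strand, so reads of the overlap cannot be told apart between the pair. The same limit holds for Mpo, whose exons Gm11505 overlaps on the opposite strand; Gm11505 was not found in the count table.

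Elane encodes neutrophil elastase, a serine protease related to proteinase 3, and was the only one of the 9 genes whose fall passed the test. Elane (ENSMUSG00000020125) had 71 and 68 counts in the controls and 46 and 22 in the mutants. Scaled, the mutant libraries stood at 1.74 and 1.40 CPM, below the controls at 2.78 and 3.12. The change was -0.87 ± 0.23 (edgeR adjusted p = 0.00331), from 2.95 ± 0.242 to 1.57 ± 0.239 CPM. With DESeq2 the value was -0.90 and its adjusted p = 0.0621, the highest of 14 alternatives whose adjusted p began at 0.000404.

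Ctsg encodes cathepsin G, the third granule protease of the group. Ctsg (ENSMUSG00000040314) had 62 and 56 counts in the controls and 50 and 23 in the mutants. At 1.89 and 1.46 CPM both mutant libraries lay below both controls, at 2.42 and 2.57, yet the change of -0.53 ± 0.23 missed the threshold (edgeR adjusted p = 0.0583). With the edgeR exact test its adjusted p was 0.0408, and over 14 alternatives it ran from there to 0.295. The mutant over control ratio of pooled counts for Ctsg was 0.695, with an exact 95% counting interval from 0.512 to 0.938. For Elane it was 0.549, with an interval from 0.405 to 0.740. The count of Elane over that of Ctsg was 1.15 and 1.21 in the controls and 0.920 and 0.957 in the mutants. From pooled counts, the mutant over control ratio of this ratio was 0.791, with an interval from 0.513 to 1.22, which includes no difference. Such intervals cover counting error only.

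Prtn3 and Elane are neighbours on chromosome 10 and moved apart. In the RefSeq order of protein-coding genes on GRCm38.p6 they are flanked by Ptbp1 and Plppr3 on the side of Prtn3 and by Cfd and Med16 on the side of Elane. Plppr3 rose by 1.81 (edgeR adjusted p = 0.000145), beside Prtn3. Cfd, the complement factor D gene, had 1 count in all 4 libraries together. The outer neighbours, the splicing factor gene Ptbp1 (-0.53) and the Mediator subunit gene Med16 (-0.65), fell. The count of Prtn3 over that of Elane was 3.54 and 3.59 in the controls and 15.7 and 17.2 in the mutants, a 4.62-fold difference of the ratio that does not depend on scaling between libraries. From the pooled counts this ratio of ratios was 4.55, with an exact 95% counting interval from 3.31 to 6.30.

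Setting each gene against Mpo in the same library removes the scaling between libraries. Elane stood at 0.0990 and 0.0993 of the Mpo count in the controls and at 0.0362 and 0.0278 in the mutants, 3.12-fold lower. The ratio was 2.48-fold lower for Ctsg, 2.52-fold lower for Ngp, 2.33-fold lower for Camp and 1.61-fold lower for Ltf. For Prtn3 it was 1.48-fold higher, and for S100a8 and S100a9 3.58-fold and 3.60-fold higher. In each of the 8 ratios both mutant libraries lay outside the range of the controls. Mpo itself rose 1.65-fold, so a gene with no change of its own, such as Ltf, also stands lower against it. The share of all genes whose ratio to Mpo lies outside that range was not computed. With 2 libraries a group the smallest exact two-sided permutation p is 0.33, so these ratios are given without a test; the counting interval for Ltf, 0.362 to 1.01, includes no change.

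**Figure D2:**
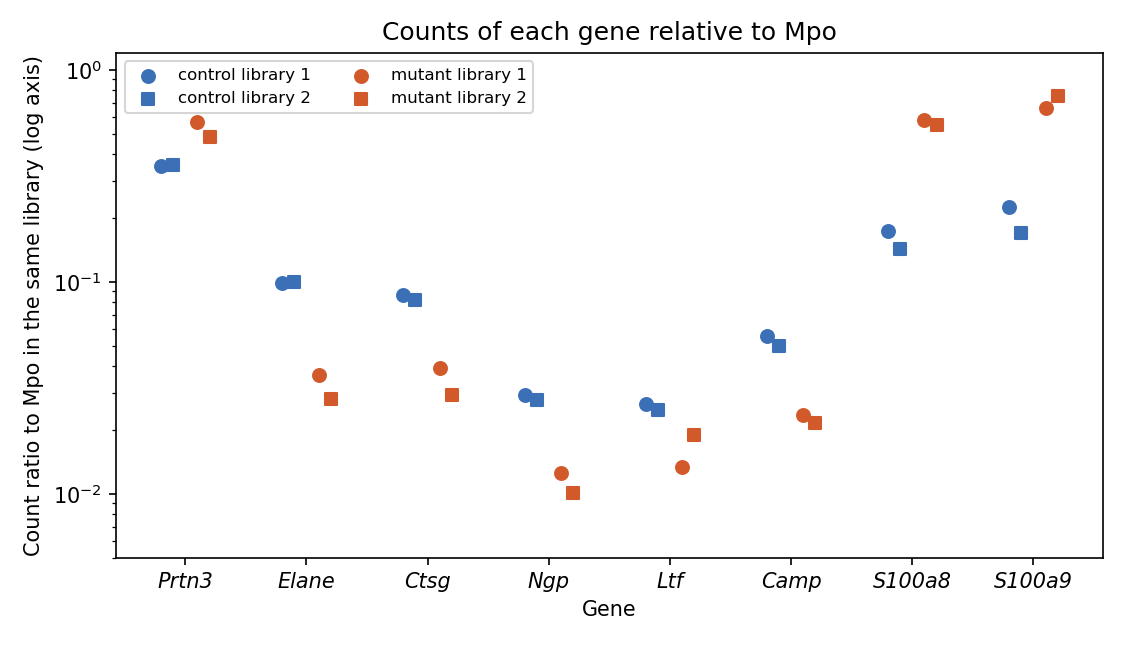
Count of each gene divided by the count of Mpo in the same library (vertical axis, log scale; points are single libraries, blue for control and orange for mutant). Elane, Ctsg, Ngp, Ltf and Camp lie lower in both mutant libraries, and Prtn3, S100a8 and S100a9 higher. Mpo itself was higher in both mutant libraries.

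None of the 3 secondary granule genes passed the test, and their counts were small. Ngp encodes a neutrophilic granule protein related to the cathelicidins and cystatins. Ngp (ENSMUSG00000032484) had 21 and 19 counts in the controls and 16 and 8 in the mutants, a change of -0.57 ± 0.37 (edgeR adjusted p = 0.205). Camp, the precursor of the antimicrobial peptide cathelicidin, is ENSMUSG00000038357. It had 40 and 34 counts in the controls and 30 and 17 in the mutants, -0.49 ± 0.27 (edgeR adjusted p = 0.142). In both genes the mutant libraries lay below the controls once scaled, at 0.605 and 0.509 against 0.821 and 0.871 CPM for Ngp and at 1.13 and 1.08 against 1.56 and 1.56 CPM for Camp.

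Ltf encodes lactotransferrin, the iron-binding protein of the secondary granules. Ltf (ENSMUSG00000032496) had 19 and 17 counts in the controls and 17 and 15 in the mutants. Its groups overlapped, with 0.743 and 0.780 CPM in the controls and 0.642 and 0.954 in the mutants, and the change was 0.01 ± 0.37 (edgeR adjusted p = 0.989). The sign of the Ltf value turned under 4 of 13 alternatives: it was 0.33 without mutant replicate 1 and -0.24 without mutant replicate 2. At this depth the exact 95% counting intervals of the mutant over control ratio ran from 0.389 to 1.15 for Ngp, from 0.484 to 1.04 for Camp and from 0.600 to 1.65 for Ltf. Each of these 3 intervals includes a ratio of 1.

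The cytosolic pair rose most. S100a8 (ENSMUSG00000056054) had 124 and 98 counts in the controls and 736 and 432 in the mutants, and its level went from 4.67 ± 0.251 to 27.6 ± 0.228 CPM. That is a change of 2.56 ± 0.11 (edgeR adjusted p = 3.32e-12), or 5.90-fold. S100a9 (ENSMUSG00000056071), its partner in calprotectin, had 162 and 116 counts in the controls and 837 and 594 in the mutants. It went from 5.83 ± 0.718 to 34.7 ± 4.36 CPM, 2.56 ± 0.12 (edgeR adjusted p = 2.01e-11), or 5.88-fold.

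S100a8 and S100a9 kept their proportion to each other. The count of S100a9 over S100a8 was 1.31 and 1.18 in the controls and 1.14 and 1.38 in the mutants, with overlapping groups, and the counting interval of the mutant over control ratio was 0.803 to 1.19. They lie side by side among the protein-coding genes of chromosome 3. The nearest coding genes beyond them, S100a7a and Pglyrp4, had 0 counts in every library, which allows a level of up to 0.112 to 0.199 CPM (3 counts of a library's total). Further out, S100a6, a calcium-binding protein of the same family, was counted once in the controls and 44 times in the mutants, which gives 49.4 as the ratio (exact 95% counting interval 8.42 to 1996). The fitted change of S100a6 was 5.29; leaving out control replicate 1 made it 7.47, and leaving out control replicate 2 made it 4.53.

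Per kilobase of exon, which allows genes to be compared, the order of levels differed between groups. In the controls the highest were S100a9 at 11.2 ± 1.38 and Mpo at 8.68 ± 0.697 CPM per kb, with S100a8 (6.73 ± 0.362) and Prtn3 (6.06 ± 0.561) next. S100a8 and Prtn3 came close, at 6.99 and 6.48 against 5.67 and 6.46 CPM per kb in the control libraries, so these neighbours did not differ beyond their spread. In the mutants S100a9 (66.5 ± 8.36) and S100a8 (39.8 ± 0.329) led, followed by Prtn3 (14.9 ± 1.32) and Mpo (14.4 ± 0.463), which overlapped. Elane (3.00 ± 0.246 in controls, 1.59 ± 0.243 in mutants), Ctsg (2.42 ± 0.0982 and 1.62 ± 0.291) and Camp (2.06 ± 0.00472 and 1.46 ± 0.0484) came after them. Ngp (0.693 ± 0.0290 and 0.456 ± 0.0553) and Ltf (0.221 ± 0.00750 and 0.231 ± 0.0640) were lowest in both groups.

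**Figure D3:**
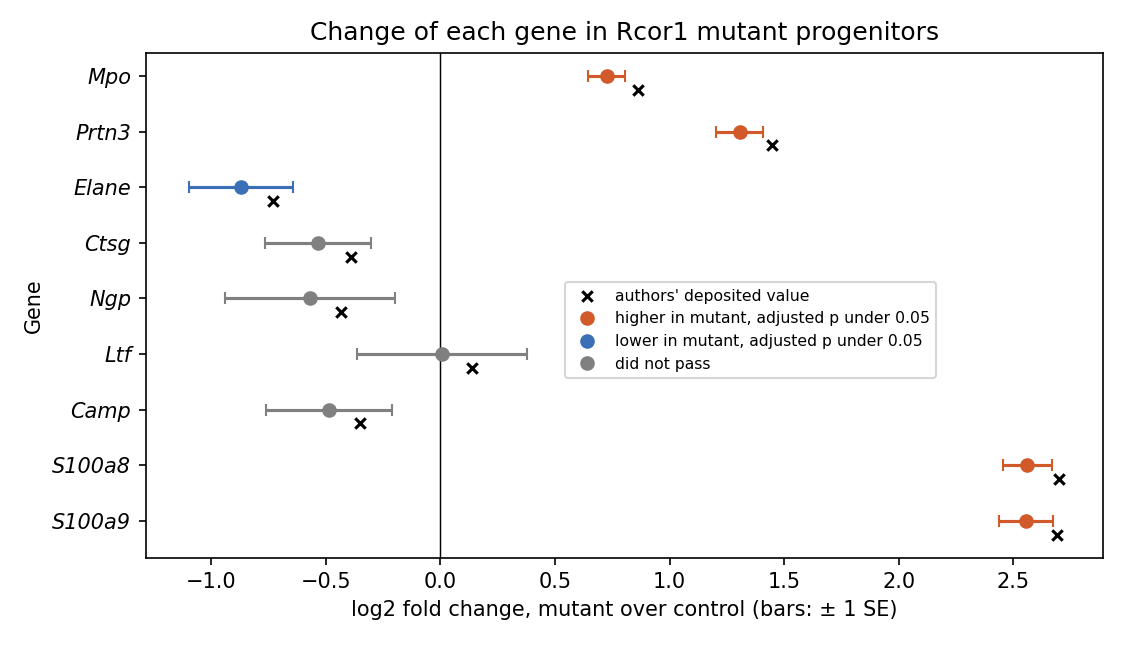
Change of each gene (horizontal axis, log2 fold change of mutant over control; circles and bars are the edgeR estimate ± 1 standard error, coloured by the call; crosses are the values of the authors' deposited table). S100a8 and S100a9 lie near 2.56, Prtn3 at 1.31, Mpo at 0.73 and Elane at -0.87; the crosses lie to the right of every circle.

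In the authors' deposited table the log2 fold change was 0.86 for Mpo, 1.45 for Prtn3, 2.70 for S100a8, 2.69 for S100a9 and -0.73 for Elane. Ctsg (-0.39), Ngp (-0.43), Camp (-0.35) and Ltf (0.14) had adjusted p-values of 0.155 or more in the authors' deposited table, so the same 5 genes passed there. Refitted with scaling by library totals and no TMM factor, the values differed from the authors' deposited table by at most 0.00575 for any of the 9 genes.

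Other genes of the primary granule list mostly rose. That list also holds genes not confined to primary granules, such as Gusb, Clec12a and Ms4a3. Beside the members, 9 further genes of the list were tested: 7 rose, 1 fell and 1 did not pass, with a median of 0.79. Serpinb1a, an inhibitor of the granule proteases, changed by 2.07 ± 0.27 (17 and 15 counts in controls, 74 and 46 in mutants). Cst7 (1.88), which encodes the protease inhibitor cystatin F, and the myeloid lectin gene Clec12a (1.71) rose as well. Srgn, the proteoglycan that packs granule proteins (1.01), and Ctsc, the dipeptidyl peptidase that activates the granule serine proteases (0.79), rose from 852 and 709 to 1727 and 1063 counts and from 1049 and 855 to 1907 and 1039. The lysosomal enzyme gene Gusb fell by 0.39. Ms4a3, a gene of granulocyte and monocyte progenitors, had 0.37 ± 0.35 and did not pass. Bpi, the bactericidal protein of human primary granules, had 1 count in all.

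Of 11 further genes of the secondary and tertiary granules that were tested, 8 rose, none fell and 3 did not pass, with a median of 1.25. The collagenase gene Mmp8 was counted 2 times in the controls and 78 times in the mutants, which gives 43.8 as the ratio (exact 95% counting interval 11.7 to 368); its fitted change of 5.24 became 4.41 without mutant replicate 1. Cybb, the membrane subunit of the phagocyte oxidase, had 2.91 ± 0.35, and 4.00 without control replicate 1. Olfm4, a protein of specific granules, rose from 37 and 36 to 201 and 129 counts (2.35 ± 0.18), and Lcn2, the siderophore-binding lipocalin, from 5 and 8 to 23 and 23 (1.98 ± 0.46). Cd177 (0.89), Adam8 (0.66) and Pglyrp1 (-0.05) did not pass. The filter admits genes that are high in either group, so scarce genes of these lists, such as Mmp8, were tested only through their mutant level and had to differ. The counts of rises in the lists and the list medians are therefore descriptions.

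Genes of mature neutrophils were at or near 0. Ly6g, which encodes the antigen used to mark mouse neutrophils, and Chi3l3 had 0 counts in all 4 libraries. Retnlg had 1 and 2 counts in the controls and none in the mutants, and the gelatinase gene Mmp9 had 2 and 6 against 6 and 1. Chi3l3 shares 37.3% of its 36-base words with other annotated genes and Ly6g 6.51%, and no source used here describes the handling of multi-mapping reads. Of the members, Mpo shared 0.433% of its words with other genes, and the other 8 shared none. Words were compared on the transcribed strand only, so the overlap of Prtn3 with Plppr3 is not in these shares.

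Beside S100a8 and S100a9, 4 genes of the S100, stefin and annexin list were tested, and 3 rose: S100a6, the stefin gene Stfa3 (2.85 ± 0.42) and Anxa1 (2.75 ± 0.19), a calcium-dependent lipid-binding protein of leukocytes. Stfa1 did not pass (0.78). All 10 tested receptor and adhesion genes of the neutrophil surface rose, with a median of 2.05. Il1r2, the decoy receptor for interleukin 1, had 0 counts in both controls and 22 over both mutants, at least 8.24-fold higher against a limit of 3 counts over the group. The chemokine receptor gene Cxcr2 had 3 and 1 counts against 25 and 9 (3.16, and 3.95 without control replicate 1). Clec4d, a lectin receptor of myeloid cells, had 3 counts against 24 (ratio 8.99, counting interval 2.73 to 46.6). Csf3r, the receptor for G-CSF, the main growth factor of neutrophils, rose from 2 and 4 to 12 and 9 counts (1.93 ± 0.61).

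Of 12 tested transcription factor genes of granulocyte development, 10 rose, 1 fell and 1 did not pass, with a median of 1.26. Sfpi1, which encodes PU.1, rose from 316 and 191 to 2247 and 1266 counts (2.96 ± 0.13). Meis1 (2.29), Cbfb, the partner of Runx1 (2.26), and Irf8, a factor of the monocyte branch (2.16), followed. Cebpe, the factor that drives secondary granule genes, rose from 22 and 19 to 45 and 35 counts (1.14 ± 0.29), and Cebpa, which drives primary granule genes, from 92 and 66 to 147 and 99 (0.82 ± 0.17). Gfi1, a repressor needed for neutrophil development, rose from 10 and 11 to 33 and 15 counts (1.34 ± 0.37). Cebpd fell by 1.40 ± 0.25, from 80 and 58 to 26 and 20 counts. Myb did not pass (0.07); under upper quartile scaling and library totals it had 0.15 and 0.21 and passed. Cebpb was not found by symbol. Too low in counts to be tested were Klf4, Egr1, Nab2, Hoxa9 and Lef1 here, and Fpr1, Fpr2, Clec4e and Ly6c1 of the surface list. The same held for S100a11, Stfa2, BC100530 and Stfa2l1 of the S100 list and Cd14 and Timd4 of the monocyte list. It also held for Ear1 and Ear2 of the eosinophil list and Serpina1a of the hepatoblast list. Each of these genes had at most 10 counts in any library. Ear1 (69.6%), Ear2 (53.9%), S100a11 (46.8%), Ly6c1 (42.9%), Stfa2l1 (36.5%) and Stfa2 (28.9%) share 36-base words with other annotated genes. Whether reads of such words were counted is not known, so their low counts need not mean scarce transcripts.

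**Figure D4:**
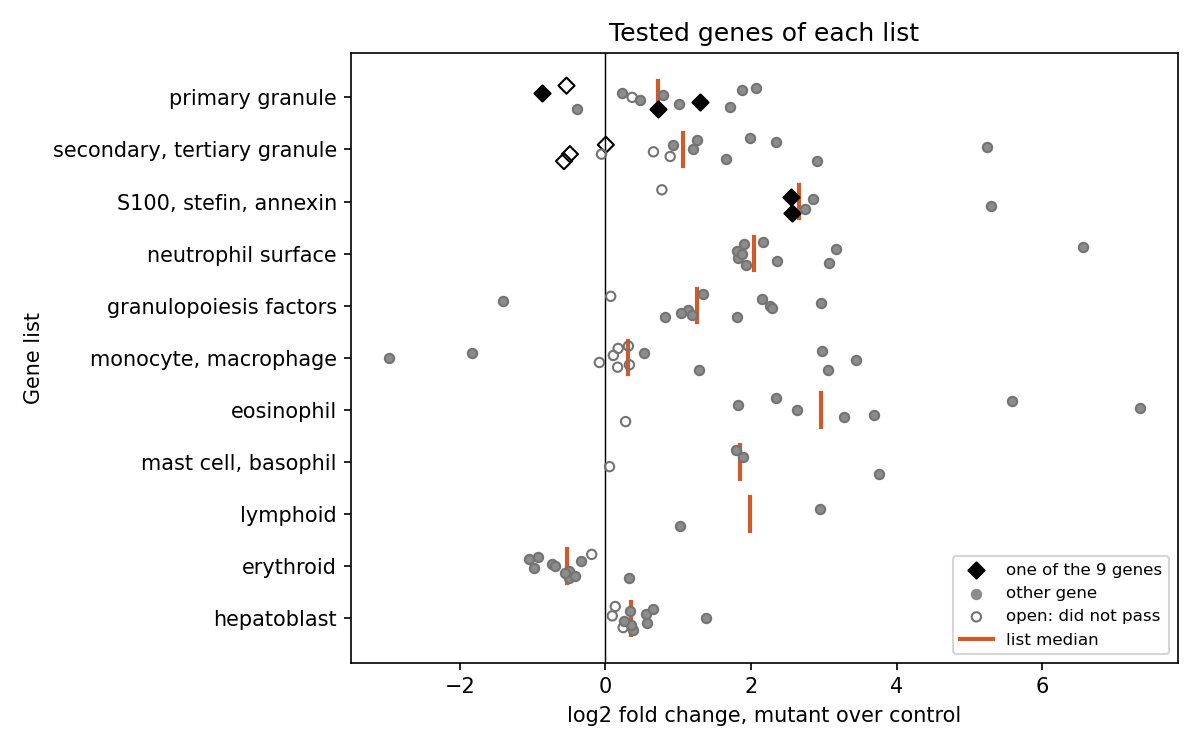
Change of every tested gene of the 11 lists (horizontal axis, log2 fold change of mutant over control; diamonds are the 9 genes, circles other genes, open symbols did not pass, orange bars are list medians). Elane, Ctsg, Ngp, Camp and Ltf lie left of the medians of their lists (0.73 and 1.07), while S100a8 and S100a9 lie close to theirs (2.65). These medians include the 9 genes, which partly sets how near the genes lie to them. Without the 9 genes the 3 medians are 0.79, 1.25 and 2.80. The secondary granule and S100 lists also hold scarce genes tested only through their mutant level, such as Mmp8 and S100a6. That can raise their medians, with or without the 9 genes, so positions against them are descriptions.

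Genes of other cells that the sorted fraction could hold moved with these changes, and their part in the results was not tested. Eosinophil genes took 8.70 and 8.59 CPM by library total in the controls and 43.6 and 43.4 in the mutants, and 7 of 8 tested rose. Monocyte and macrophage genes took 24.5 and 24.8 against 43.9 and 41.7, with 5 of 13 higher and 2 lower. The mast cell and basophil list, which Kit dominates, took 182 and 186 against 226 and 233, with 3 of 4 higher. The mast cell carboxypeptidase gene Cpa3 rose from 4 and 5 to 71 and 41 counts (3.76 ± 0.36), the histidine decarboxylase gene Hdc from 55 and 47 to 217 and 122 (1.89 ± 0.17), and Gata2, a factor of mast cells and early progenitors, from 109 and 72 to 338 and 217 (1.79 ± 0.14). Kit did not pass (0.06), but had 0.13 and 0.19 and passed under upper quartile scaling and library totals. The mast cell protease genes Mcpt4 and Tpsab1 had 0 counts in all 4 libraries. Lymphoid genes took 0.967 and 1.27 against 6.35 and 5.65, where both tested genes, Cd79b and Cd3g, rose; the natural killer cell genes Klrb1c and Ncr1 had 0 counts. Hepatoblast genes took 948 and 938 against 1415 and 1409, with 8 of 11 higher, among them the keratin gene Krt18 (1.38), Hnf4a (0.65), Trf (0.57) and Afp (0.56). Apoa1 (0.14), Apoa2 (0.09) and Krt8 (0.24) did not pass, though Apoa1 passed under 3 alternatives and Apoa2 under 1. The call of Cd3g (1.03, adjusted p = 0.0332 by edgeR) was lost with DESeq2 (adjusted p = 0.237) and without control replicate 1 (0.262), control replicate 2 (0.0548) or mutant replicate 2 (0.163).

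Over the 4 libraries, the genes with log2 CPM profiles nearest to that of Mpo were Frrs1, Tspan5 and Cnot6l, at Euclidean distances of 0.0215 to 0.0315. Nearest to Elane were Amot, Btbd6 and Gja6 (0.0554 to 0.0985), and nearest to Ctsg were Gm5380, Sqrdl and Map3k4 (0.0378 to 0.0610). None of these is in the granule lists, and a profile of 4 libraries holds little beyond the difference between the groups.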

How the data were processed

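The submitters' processing notes name Bowtie, FastQC and edgeR and the build mm9, without versions. The authors deposited whole-number counts per Ensembl gene, and a table of log2 fold changes and p-values of their own comparison, per the file headers. Read assignment, strand and the treatment of reads mapping to several places are stated in no source used here. Columns named WT were taken as the controls of the same number, since no label ties them outright. Separate livers were pooled in each library, so p-values measure the spread between pools.

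The 12 rows that held NA were left out, leaving 35927. The fit to these counts used edgeR 4.0.16 under R 4.3.3 (filterByExpr, TMM, estimateDisp, robust glmQLFit, glmQLFTest; two-sided, adjusted p threshold 0.05); limma 3.58.1 and DESeq2 1.42.0 gave alternatives. Standard errors were derived from each fold change and its F statistic. Elane, with 139 control counts, has a counting error of 8.48%, and Ltf, with 36, of 16.7%. Replicates were compared by chi-square per gene (5.76 between controls, 3.67 between mutants, over 10006 genes), and none was treated as a duplicate. The common dispersion was 0.00232. The script was tested on simulated data for mutant against control (13140 genes). It recovered 49 of 67 genes with a 1.5-fold change, 63 of 67 with 2-fold and 65 of 66 with 4-fold. It also called 11 unchanged genes. Every simulated gene had the common dispersion, and the changed genes were drawn at random whatever their counts. They were far fewer than the 57.5% of genes called in the data. Recovery of scarce genes such as Ltf was not measured apart.

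The members, the 11 lists and the motifs were chosen with earlier results of these data known. Named from each list were up to 4 risers and 4 fallers past the threshold with at least 20 counts in the higher group. Every gene behind a tally of 5 or fewer genes was also named, such as those that did not pass or had too few counts. Further genes were named for their role after their values were seen. Exon lengths and shared 36-base words come from GENCODE M21, on a later build than mm9. Of the genes that this rule names, 1 is not reported here.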

Additional observations from a re-analysis of the deposited data

How the results depend on the processing

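Mpo, Prtn3, S100a8 and S100a9 kept their direction and their calls under all 14 alternatives: 3 scalings, 2 filters, 4 tests or fits, the replicate block and 4 left-out libraries. With library totals alone, 2553 genes fell, against 3835 with TMM, and the median of all genes moved from 0.01 to 0.15. The count of members that fell was 1, and became 0 with DESeq2, where Elane had -0.90 (adjusted p = 0.0621), and 2 with the edgeR exact test and with the replicate block, where Ctsg had -0.53 and -0.54 (adjusted p = 0.0408 and 0.0429). Ltf changed sign with no filter beyond 1 count (-0.029) and with limma-voom (-0.0063), and ran from -0.24 to 0.33 with a library left out; the cause was not tested. With a library left out, Ms4a3 ran from -0.089 to 0.88, Epx from -0.059 to 0.47 and Hba-a2 from -0.36 to 0.0094. With CPM above 1 in 2 libraries, Ngp and Ltf were not tested. The labels do not say that equal replicate numbers mark a shared litter or day; deviations of same-numbered libraries correlated at 0.119 over genes, and with the replicate block no member's call changed but that of Ctsg. Depth limits the 5 scarce members, Elane, Ctsg, Ngp, Ltf and Camp, whose control counts over both libraries ran from 36 to 139.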

Other observations

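Prg3 and Prg2, which encode forms of major basic protein, rose from 17 and 14 to 231 and 130 counts (3.69 ± 0.21) and from 160 and 130 to 548 and 360 (1.83 ± 0.11). Epx, the eosinophil peroxidase gene, had 35 and 31 against 51 and 21 counts and did not pass (0.28 ± 0.27, edgeR adjusted p = 0.398). The eotaxin receptor gene Ccr3 had 0 counts in both controls and 38 over both mutants, at least 14.2-fold higher against a limit of 3 counts over the group. Siglec5, which marks mouse eosinophils, rose by 3.28, and Il5ra had 2 counts against 98 (ratio 55.0, exact 95% counting interval 14.8 to 461). The fitted change of Il5ra was 5.58; leaving out control replicate 1 made it 8.60, and leaving out control replicate 2 made it 4.75.

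Within the monocyte and macrophage list, Ccr2 (3.45), Ly86 (3.06), Lyz2 (2.97) and Csf1r (1.28) rose, while the scavenger receptor genes Marco, from 86 and 66 to 10 and 7 counts (-2.97), and Cd5l (-1.83) fell. The complement genes C1qa, C1qb and C1qc of tissue macrophages did not pass (-0.08, 0.32 and 0.11). Emr1 passed at 0.54 (edgeR adjusted p = 0.046), and had adjusted p from 0.0142 to 0.279 over 14 alternatives. Lyz2 shares 27.3% of its 36-base words with Lyz1, which had 0 counts.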
